A study of Mus musculus with 2 samples.

Results

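The Foxp4 sites described here are those at 9 genes of the Kruppel-like factor (Klf) family: Klf2, Klf3, Klf4, Klf5, Klf6, Klf7, Klf9, Klf13 and Klf15. They were chosen by the peak positions themselves: a peak was taken when the deposited peak list names a listed gene as its nearest, or when its midpoint lies within 100 kb of the body of a listed gene. This gave 23 of the 3317 peaks in the list. Of the 23, the list names a member as nearest gene for 18, and the other 5 carry another gene's name but lie within the window. The counts of peaks per gene below therefore describe the selection and were not tested.

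Klf proteins are transcription factors that bind GC-rich and CACCC sequences through zinc fingers at their C-terminal end. In fat cell precursors, family members act at successive steps of differentiation: Klf4, Klf5, Klf6, Klf9, Klf13 and Klf15 are known to favour adipogenesis, whereas Klf2, Klf3 and Klf7 are known to hold it back. Foxp4 is a forkhead transcription factor, of a subfamily known mainly for repression.

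Foxp4-bound DNA was sequenced from stromal vascular fraction cells, the mixed non-adipocyte cells of inguinal white fat, from C57BL/6 mice. After 3 days of growth with 20% serum the confluent cells received a beige induction mix for 48 h, made of 10% serum, 5 µg/ml insulin, 0.5 mM of the phosphodiesterase inhibitor isobutylmethylxanthine, 1 µM of the glucocorticoid dexamethasone, 50 nM of the thyroid hormone T3 and 5 µM of the Pparg ligand troglitazone. The series has 1 ChIP library and 1 input DNA library of cells treated alike, and only the peak list of the ChIP library was used here, so no value has a replicate error. The age and sex of the mice, and whether cells of several mice were pooled, are not given in the sources used here. A peak list holds no expression values, so the cell type was not checked against markers. Read depth is unknown.

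The promoter at which the data bear most directly is that of Klf9, because of the 8 member promoter windows in the RefSeq table it is the 1 that overlaps a peak. The share of all promoter windows that overlap a peak was not computed, so nothing is read from this count. The Klf9 window runs from 250 bases before to 50 bases after the start site (RefSeq, GRCm38.p6, chr19:23140976-23141275, plus strand). Capitals mark the 86 bases that lie inside the peak chr19:23140672-23141061.

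Klf9 promoter: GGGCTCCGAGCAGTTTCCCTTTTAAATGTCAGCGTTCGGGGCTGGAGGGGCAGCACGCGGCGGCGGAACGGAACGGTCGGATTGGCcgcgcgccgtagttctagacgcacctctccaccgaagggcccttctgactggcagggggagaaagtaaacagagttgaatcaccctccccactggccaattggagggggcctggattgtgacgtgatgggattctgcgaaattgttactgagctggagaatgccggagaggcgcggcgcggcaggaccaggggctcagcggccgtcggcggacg

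The Klf15 window (chr6:90462326-90462625, plus strand) is shown beside it because Klf15 is the other member with a peak close to its start. That peak begins 780 bases beyond the window, so no capital here lies inside a peak. Capitals mark the 3 matches to the E-box CACGTG.

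Klf15 promoter: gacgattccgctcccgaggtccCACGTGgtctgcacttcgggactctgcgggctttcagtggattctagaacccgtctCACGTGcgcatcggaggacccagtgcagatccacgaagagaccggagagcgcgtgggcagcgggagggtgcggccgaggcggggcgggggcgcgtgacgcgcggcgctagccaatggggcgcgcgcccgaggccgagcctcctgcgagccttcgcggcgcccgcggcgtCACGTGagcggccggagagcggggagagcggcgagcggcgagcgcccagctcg

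Forkhead cores were searched in the forms TGTTTAC and also TGTTTGC, further TGTTTAT and lastly TATTTAT, on both strands of the promoter windows of the 8 members found in the promoter table, all but Klf5. Of these, 3 windows held 1 match each, shown with 10 bases on either side, in the direction of the gene, with the match in capitals. The Klf9 match (chr19:23141116-23141142 with its flanks) is to TGTTTAC on the opposite strand, the Klf3 match (chr5:64803351-64803377) to TGTTTGC and the Klf4 match (chr4:55532626-55532652, minus strand) to TGTTTAT.

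Klf9 forkhead match: gggggagaaaGTAAACAgagttgaatc

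Klf3 forkhead match: gcggggtgcgTGTTTGCcagtgactcg

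Klf4 forkhead match: gcgcggagttTGTTTATttagctacca

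The Klf9 match starts 100 bp upstream of the start site, with 64 bases between it and the end of the promoter peak, so the match is outside the peak. For Klf3 and Klf4 the closest peak was 74.6 kb and 42.7 kb from the match. Among all 32851 promoter windows, TGTTTAC was found in 3.65%, TGTTTGC in 5.07%, TGTTTAT in 4.6% and TATTTAT in 5.6%. Each of these shares is for a single form. The share of windows holding any of the forms was not computed, so the count of member windows with a match has no like share beside it. The sequence of the peaks outside promoter windows was not used here.

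By nearest gene, 7 of the 9 members had a peak: Klf2, Klf3, Klf4, Klf5, Klf6, Klf9 and Klf15. Across all 21883 protein-coding genes, 9.11% had one. Within 100 kb of the gene body, too, 7 of the 9 had a peak, with Klf13 in place of Klf5, against 27.6% of all protein-coding genes. Klf13 and Klf15 had peaks inside the gene body, which was the case for 5.36% of protein-coding genes. Klf15 and Klf9 had a peak assigned to them within 3 kb of the start site, against 2.08%. Since the members were picked with these peaks known, the shares are given for orientation and nothing is read from the difference.

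**Figure D1:**
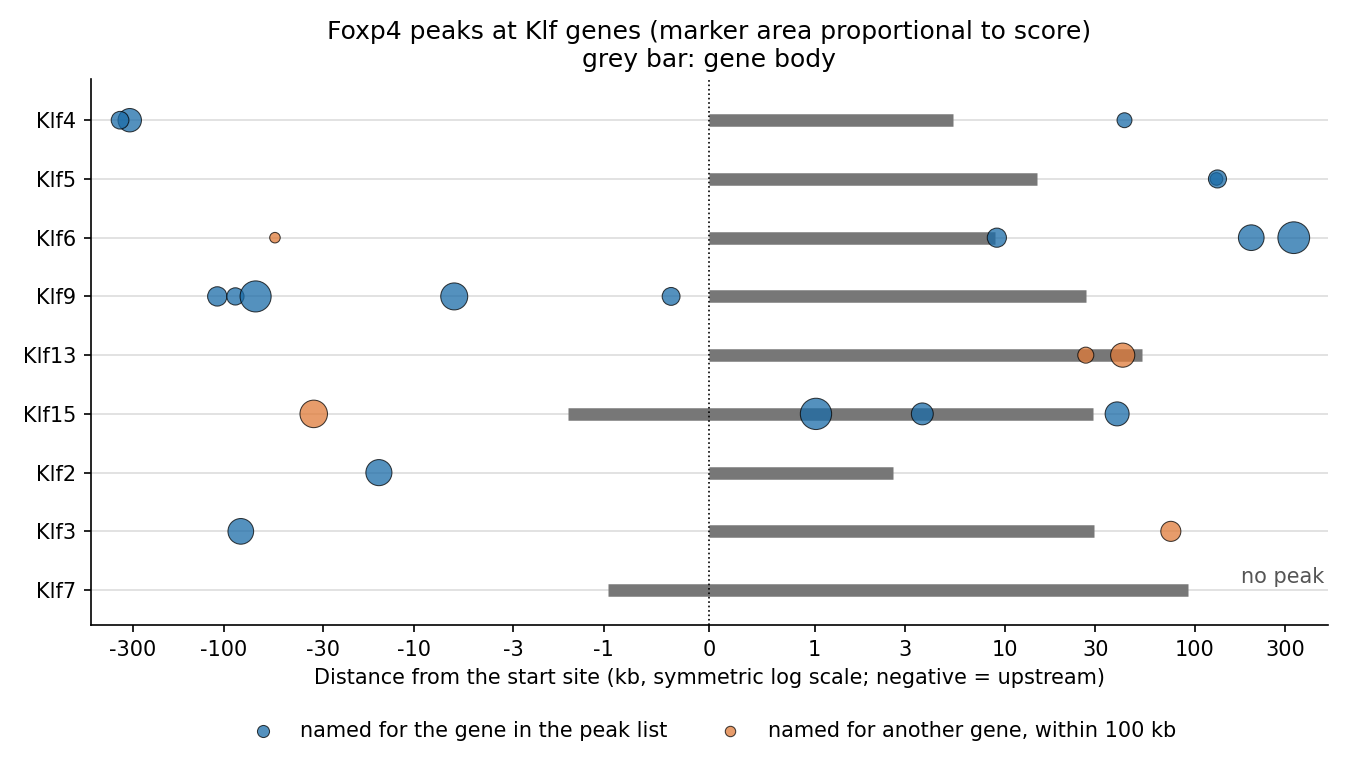
Position of each of the 23 peaks (horizontal axis, distance from the start site in kb on a symmetric log scale, negative upstream) for each gene (vertical axis), with marker area proportional to peak score. Blue markers are peaks named for the gene, orange markers are peaks within 100 kb that are named for another gene, and grey bars are gene bodies: the peaks of Klf9 all lie upstream, those named for Klf15 lie downstream, and Klf7 has none.

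Klf9 had the most sites. This gene, induced by glucocorticoids and thyroid hormone and known to activate Pparg during adipogenesis, was the nearest gene of 5 peaks, a number reached by 21 of the protein-coding genes (0.096%). All 5 lay upstream. The peak with the highest score, 139, lay 67.8 kb from the start (chr19:23073252-23073656). A peak with a score of 105 lay 6.1 kb upstream on an annotated CpG island (chr19:23134950-23135289). The promoter peak itself, centred 360 bp upstream, had a score of 46, below both. The other peaks of this gene, 86.6 kb and 107.9 kb upstream, had scores of 43 and 54 and lay on a SINE element and a (TC)n simple repeat. The 3 most distant peaks fell inside the non-coding gene C330002G04Rik and the peak at the CpG island inside the non-coding gene 2410080I02Rik, so these sites have a second annotated gene at the same place.

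Klf15 had sites in and on both sides of the gene. Klf15, a glucocorticoid-induced factor known to raise Pparg and the glucose transporter gene Slc2a4 late in adipogenesis, had 3 peaks named for it. The peak with a score of 141 lay in intron 1 of 2, 1016 bp downstream of the start, on an annotated CpG island (chr6:90463406-90463779). A neighbour 2.67 kb away in the same intron had a score of 69 (chr6:90466046-90466479). The next had a score of 83 and lay 39.1 kb downstream of the start, 9.84 kb past the gene body (chr6:90501386-90501898). Upstream, 33.5 kb from the Klf15 start, a peak with a score of 109 was annotated as the promoter of Cfap100, a cilium and flagellum gene, and lies inside that gene (chr6:90428878-90429238). With this peak Klf15 had 4 peaks within 100 kb of its body, as did Klf9 without its most distant peak. At least 4 were found at 0.855% of protein-coding genes.

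At Klf13, whose product belongs to the subgroup that recruits the corepressor Sin3A, both sites carry another gene's name. Its 2 peaks lay in its only intron (intron 1 of 1), at 26.7 kb and 41.8 kb from its start, but the list names E030018B13Rik, a coding gene that starts inside this intron, because its start is closer. The scores were 37 (chr7:63911963-63912425) and 84 (chr7:63896934-63897313). The higher peak lay on an annotated CpG island and inside the non-coding gene Gm27252.

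**Figure D2:**
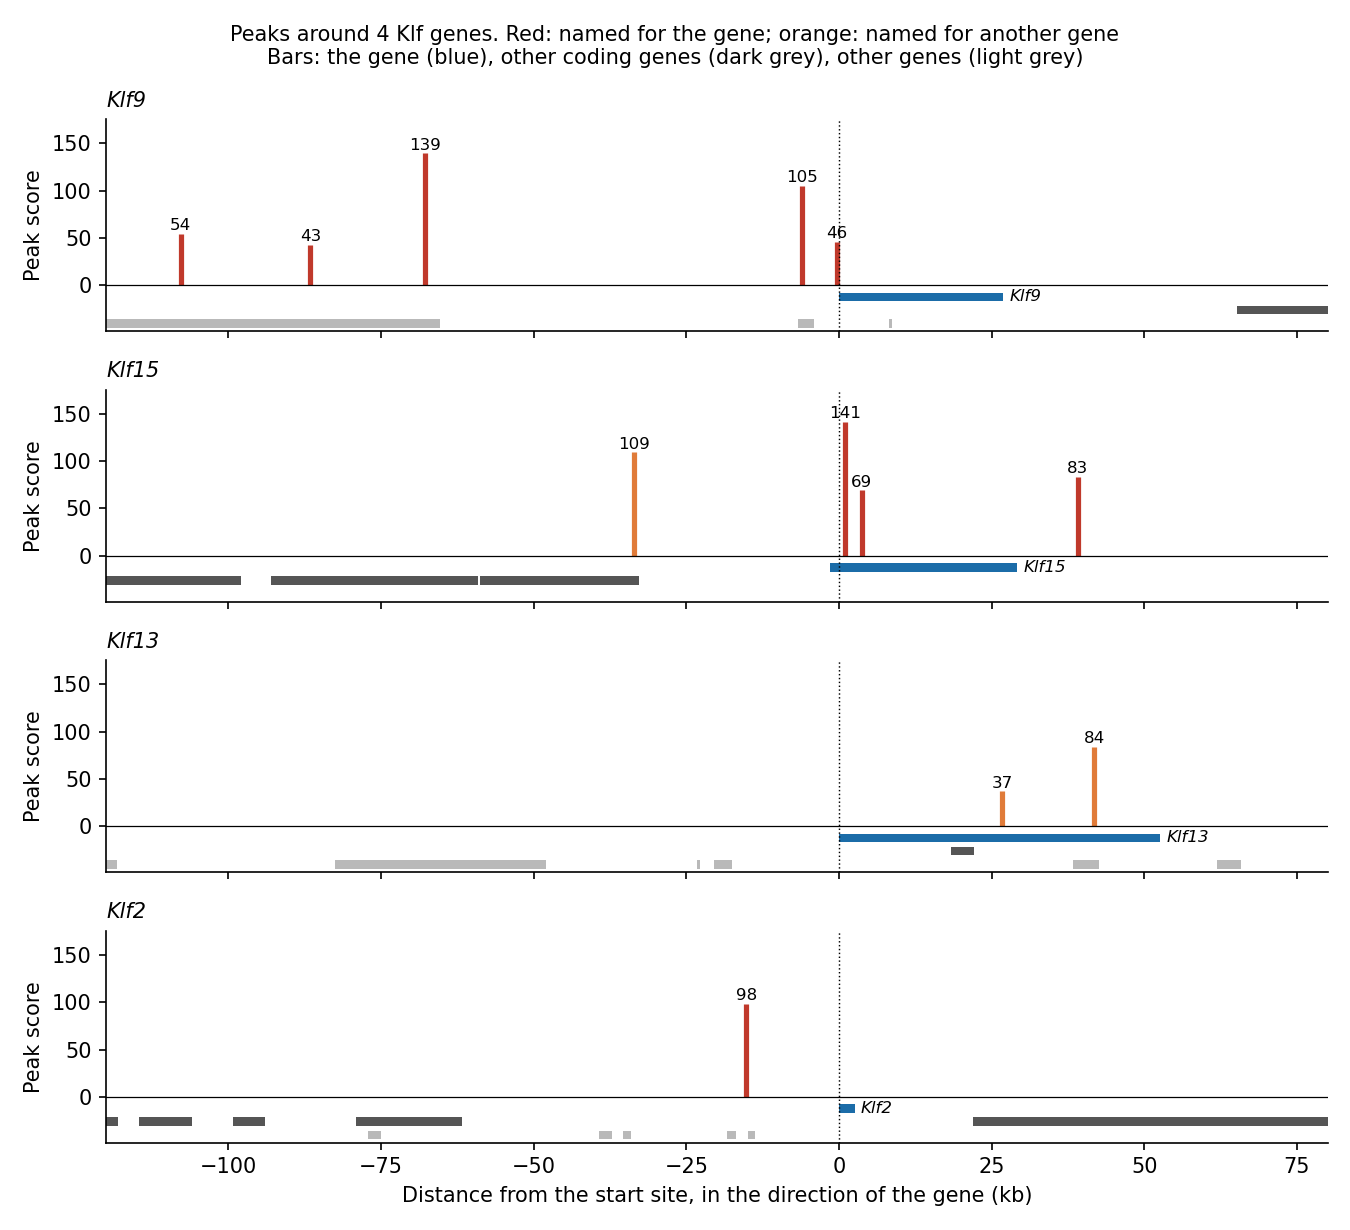
Peaks around Klf9, Klf15, Klf13 and Klf2 as vertical lines at the distance of their midpoint from the start site (horizontal axis, kb, in the direction of each gene) with their score as height (vertical axis and printed values). Red lines are peaks named for the gene and orange lines peaks named for another gene; the bars below are the gene in blue, other coding genes in dark grey and other genes in light grey, so that the 5 upstream peaks of Klf9 and the peaks inside Klf13 can be seen.

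Klf6, known to repress the preadipocyte gene Dlk1, had 3 peaks by name and a low-scoring one by distance. The named peaks all lay downstream, and their scores were higher at greater distance. Just past the end of the gene, 192 bp beyond its body, a peak had a score of 53 (chr13:5870438-5870732). At 198.5 kb from the start the score was 95 (chr13:6059692-6060244) and at 332.2 kb it was 145 (chr13:6193328-6193996). The last of these was the highest score at any member. No other protein-coding gene lies between Klf6 and these peaks, and the closest one, Pitrm1, is 354 kb from the most distant. Upstream, at 53.6 kb, a peak with a score of 16 was named for 1700016G22Rik (chr13:5807689-5808054).

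Klf4 and Klf5, both induced in the first hours of adipogenesis and known to activate Cebpb and Pparg respectively, had sites only at a distance. Klf4 had a peak with a score of 32 at 42.7 kb downstream, on an L1 element (chr4:55489606-55489923), and peaks with scores of 79 and 45 at 311.5 kb and 350.3 kb upstream (chr4:55843634-55844373 and chr4:55882651-55882957). Klf5 had no peak within 100 kb of its body. Its 2 peaks lay 1.55 kb apart, 130.2 kb and 131.8 kb downstream of the start, with scores of 23 (chr14:99428755-99429081) and 47 (chr14:99430283-99430655). Both are below the median of all peaks.

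Of the genes known to hold adipogenesis back, Klf2 and Klf3 had sites and Klf7 had none. Klf2, a repressor of Pparg, had 1 peak, with a score of 98 at 15.2 kb upstream (chr8:72303635-72304057). Klf3, which represses Cebpa with the corepressor CtBP, had a peak with a score of 95 at 81.1 kb upstream on an LTR element of the MLT1H family (chr5:64722146-64722667). This peak fell inside the non-coding gene LOC105244755. A peak named for Tlr1, a Toll-like receptor gene, lay 45.5 kb past the other end of Klf3 with a score of 58 (chr5:64878011-64878810). The peak closest to Klf7 was 389 kb away. By either criterion, the 6 genes known to favour adipogenesis had 20 peaks, with at least 1 at each gene, and the 3 known to hold it back had 3 peaks. The share of all protein-coding genes meeting either criterion was not computed. By nearest gene alone, 5 of the 6 and 2 of the 3 had a peak, against 9.11% of protein-coding genes. Within 100 kb of the body the counts were also 5 and 2, against 27.6%. The groups were not compared, since the 9 genes are few and were selected on their peaks.

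Among the peaks just inside the window of 100 kb were those at 81.1 kb from the body of Klf3 and 86.6 kb from that of Klf9. Just outside were the Klf9 peak at 108 kb and the Klf5 peaks at 116 kb and 117 kb, which were kept because the list names those genes. In all, 7 of the 23 peaks lay beyond the window and were kept by name. Between 100 and 250 kb only 1 further peak was found that is not named for a member: it has a score of 47, is named for Trpm1 and lies 217 kb from Klf13.

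Scores at these genes were in the middle of the list, not at its top. The 23 scores ranged from 16 to 145 with a median of 69 (quartiles 45.5 to 96.5), against a median of 65 (quartiles 41 to 104) and a highest score of 2569 in the whole list. The highest member score, at Klf6, ranked 472 of 3317. At or above the median of all peaks lay 12 of the 23, against 50.1% of all peaks, and 5 lay above the upper quartile of all scores: the peaks at Klf6 (145), Klf15 (141 and 109) and Klf9 (139 and 105). The score is the authors' and the sources used here do not define it, so it ranks peaks within this list only. Widths ranged from 295 to 800 bp with a median of 390 bp, against 393 bp for all peaks.

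**Figure D3:**
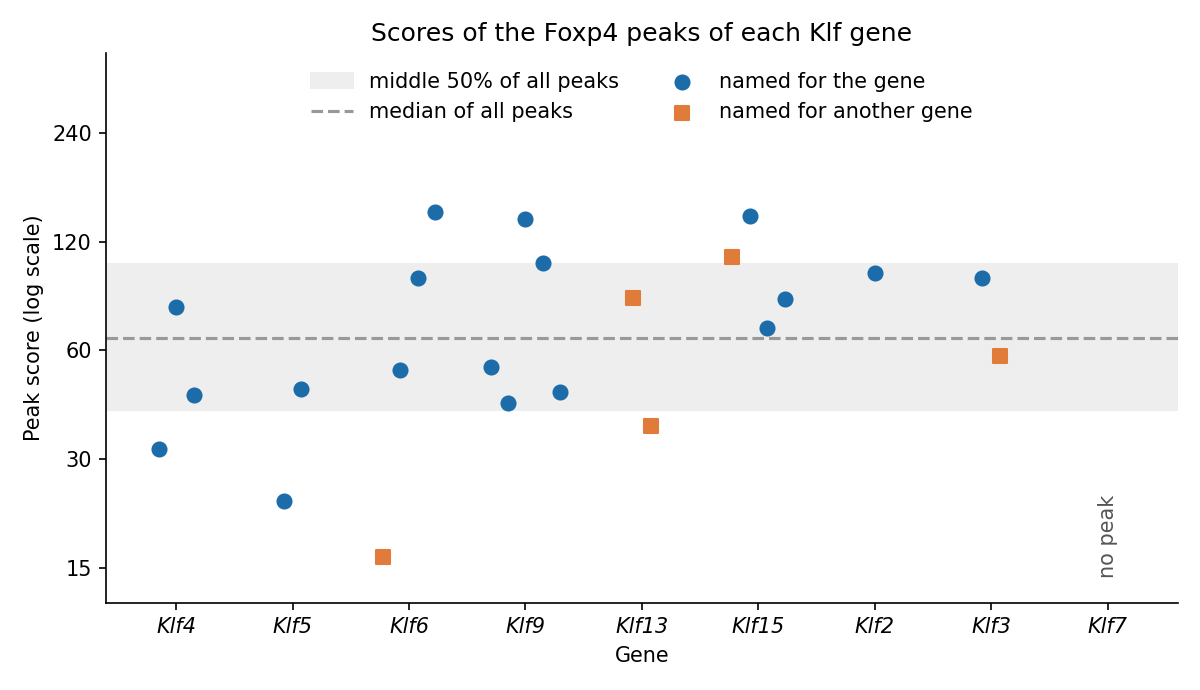
Score of each peak (vertical axis, log scale) for each gene (horizontal axis), with circles for peaks named for the gene and squares for peaks named for another gene. The grey band spans the quartiles of all peaks (41 to 104) and the dashed line their median of 65: the highest values are at Klf6 (145), Klf15 (141) and Klf9 (139), and both peaks of Klf5 are below the line.

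Most sites were annotated as intergenic, with 16 of the 23 (69.6%, exact Clopper-Pearson 95% binomial interval 47.1 to 86.8) against 50.5% of all peaks. Among these, the upstream peak of Klf3 and the peaks of Klf9 outside its promoter lay inside non-coding genes. Introns held 4 (17.4%, 4.95 to 38.8), all of them intron 1 of Klf13 or Klf15, against 38.3% of all. A further 2 were annotated as promoters (8.7%), those of Klf9 and Cfap100, a share near the 8.38% of all peaks. The remaining peak, at Klf6, was annotated as a transcription end, a class of 0.995% of all peaks. Relative to the member's start, 11 peaks lay upstream and 12 downstream. Relative to the start of the gene the list names, 12 of the 23 (52.2%) lay upstream, near the 47% of all peaks. These intervals cover counting error over peaks only, and peaks that lie close together are not independent. The 23 peaks were also taken by their position around the listed genes, not drawn at random from the list. The differences from all peaks were therefore not tested and nothing is read from them.

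CpG islands outside promoters were annotated at 3 of the 23 peaks, at Klf9, Klf13 and Klf15, a share of 13% (2.78 to 33.6). Of all peaks in the list, 41 were on such islands (1.24%). This class was picked after the annotations of these peaks had been seen, and was not tested. At annotated promoters the list repeats that class, so islands there are not seen. Repeats were annotated at 4 of the 23 (17.4%), against 23.3% of all peaks, and none was a simple repeat of 2 to 5 T followed by a G, read on either strand, the kind found at 6.39% of all peaks; the exact interval of 0 of 23 reaches 14.8%. Another peak within 3 kb was found for 4 of the 23, the pairs at Klf5 and Klf15, against 4.37% of all peaks.

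The promoters of the members were rich in G and C. The G+C content of the 8 windows ranged from 58.3% at Klf7 to 76.7% at Klf3, against a median of 52.7% over all windows. The number of CpG dinucleotides per 300-base window ranged from 16 at Klf7 to 47 at Klf15, against a median of 7. The 32851 windows belong to 27025 genes, more than the 21883 protein-coding genes, so these medians are not those of coding promoters alone. The shares of windows with a motif use the same set. The windows of the Klf9 and Klf6 promoters, at 63.3% and 63%, were lower than those of Klf2, Klf4, Klf13 and Klf15, at 69.3%, 74.3%, 72% and 73.3%. The window with a peak was thus not among the richest of the set.

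**Figure D4:**
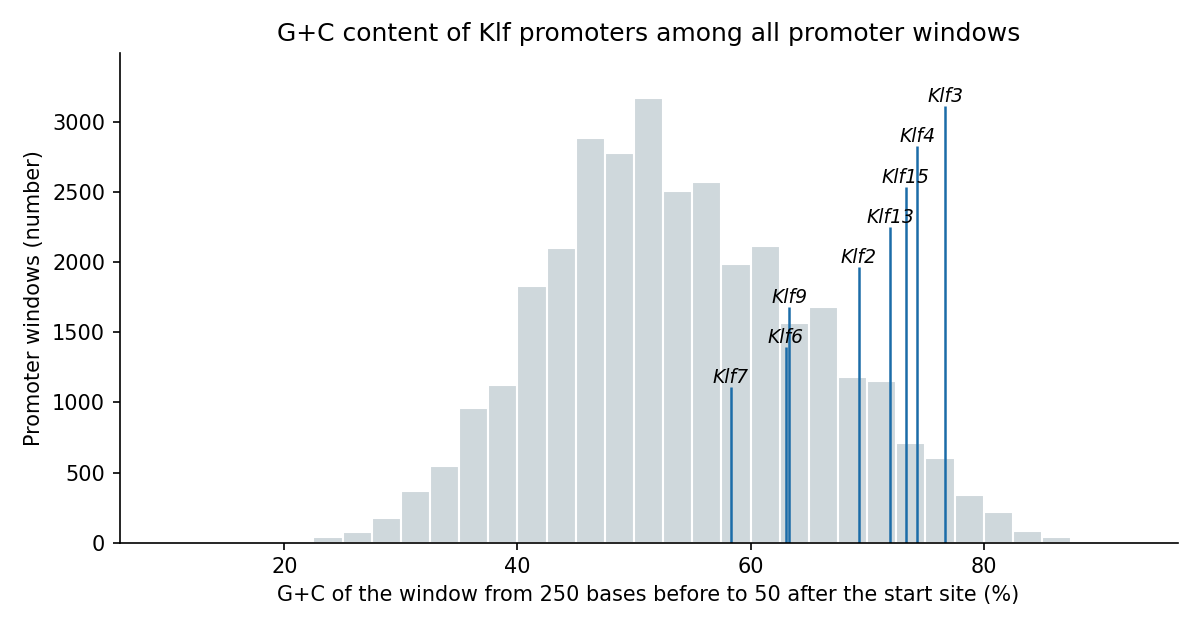
G+C content (horizontal axis, %) of all 32851 promoter windows as a histogram (vertical axis, number of windows), with the windows of 8 members marked by vertical lines whose heights carry no value. All 8 members are above the median of 52.7%, from Klf7 at 58.3% to Klf3 at 76.7%.

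Other motifs were searched in the same windows on both strands. The GC box GGGCGGGG, bound by Sp and Klf proteins, was found in 5 of the 8 windows (Klf2, Klf3, Klf4, Klf13 and Klf15) and in 17.6% of all windows. The shorter CACCC, which can overlap a GC box, was found in 6, all but Klf4 and Klf6, and in 57.5% of all. The E-box CACGTG was found in 3 (Klf4, Klf6 and Klf15) and in 7.15% of all. GGGTGTGGC (1.35% of all windows), the C/EBP palindrome TTGCGCAA (0.183%), the CREB site TGACGTCA (1.79%) and both glucocorticoid receptor palindromes (0.00913% for the full and 0.475% for the loose form) had no match in the 8 windows. Such matches are letters in a window and were not tied to binding.

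Neighbouring genes were far from most members, which bears on counts by nearest gene. The distances to the closest coding genes that lie wholly outside the member, on both sides, added up to 81 kb for Klf2, 90.3 kb for Klf15 and 184 kb for Klf9, and to 1340 kb for Klf4 and 1930 kb for Klf6, against a median of 48 kb over 21833 coding genes. On this measure, which skips coding genes that overlap a gene body, all 9 members were above that median. Such genes include E030018B13Rik inside Klf13 (312 kb) and Gm38457 at the start of Klf3 (544 kb). Klf7, without a peak, had 670 kb. The part of these distances in the counts was not tested. For 21 of the 23 peaks no body of another coding gene lay between the peak and the body of the member. The exceptions were the peak in Cfap100 and the upstream peak of Klf3, with Gm38457 between. Peaks inside a member's body count among the 21, although E030018B13Rik lies between the start of Klf13 and both of its peaks. The same share over all peaks was not computed. Taking peaks by nearest gene favours those with no gene between, so nothing is read from the 21.

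The rest of the family had no sites by nearest gene. Of the other 9 Klf genes listed, 8 were found in the gene table and 0 of them was the nearest gene of a peak, against the 9.11% of all coding genes given above. Within 100 kb of the body, 1 of the 8 had a peak, against 27.6% of all protein-coding genes. This was Klf1, the erythroid factor, with 2 peaks, both named for Junb, with 6 coding genes in or across the interval. The closest peak was 108 kb from Klf16, 130 kb from Klf14, 436 kb from Klf12, 504 kb from Klf17, 686 kb from Klf10, 868 kb from Klf11 and 3890 kb from the X-linked Klf8. By structure, a nearest peak was found at 1 of the 3 genes of the CtBP-binding subgroup (Klf3), at 4 of 6 of the activator subgroup (Klf2, Klf4, Klf5 and Klf6) and at 1 of 6 of the Sin3A-binding subgroup (Klf9). Within 100 kb of the body the counts were 1, 4 and 2, with Klf1 in place of Klf5 and with Klf13 added to Klf9, against the same 27.6%. The listed members were chosen knowing which family genes have peaks, so these counts cannot be told apart from that choice.

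In the closest related family, the Sp factors, 2 of 9 genes had a nearest peak, against 9.11% of all protein-coding genes. Sp1 had a peak in intron 3 of 5 with a score of 136 (chr15:102421036-102421479) and another 6.5 kb upstream with 53. Sp3 had peaks 23.9 kb and 67.2 kb upstream with scores of 83 and 37. Sp7 lies within 100 kb of the Sp1 peaks. The nuclear factor I genes had a nearest peak at 2 of 4 genes and the Ebf genes at 2 of 4, with 7 and 2 peaks, beside the 18 at 7 of the 17 Klf genes in the gene table. With so few genes in each family these counts are descriptions beside that 9.11%, and the families were not compared.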

How the data were processed

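The authors' peaks came from 1 Foxp4 ChIP library. Per the file headers, a narrowPeak file was annotated with HOMER's annotatePeaks.pl on mm10. Bowtie2, Picard, SAMtools, MACS2 and deepTools 3.3.0 appear in the submitters' processing notes, without roles or settings. The deposited score is a whole number from 13 to 2569 and its definition was not stated. Neither was the use of the input or of multiply aligned reads, and both can change which peaks are listed.

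All 3317 peaks were kept. Positions, nearest genes, distances and annotations are those of the deposited file. Gene bodies and promoter windows came from RefSeq tables of GRCm38.p6, the assembly of mm10. Start sites implied by the 18 named peaks lay within 3 bp of those in the tables. Distances to gene bodies were taken from peak midpoints (Python 3.11.15, pandas 2.3.3), with the calculation checked on simulated data. With 1 library no test between conditions was possible, and none was run. All members and every peak of theirs are named, as are the other Klf and Sp genes. The members, lists and motifs were chosen with earlier results of these data known.

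Alternatives covered score limits, repeats, windows, peak edges and the naming of genes. No value of the input library was used.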

Additional observations from a re-analysis of the deposited data

How the results depend on the processing

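Of 39 recomputed values, 36 were within 1.5 times the reported one. Some of the 36 were fixed or bounded in advance. The count of other Klf genes named nearest was 0 and could not fall. The median score of peaks kept for a score at or above the median of all could not be lower than that median. For peaks near the body, the setting with nearest-gene peaks only repeated the count by nearest gene. The values outside 1.5 times concern weak or borderline peaks. With only peaks at or above the median score of all peaks, 12 peaks of the members were left in place of 23, and 1 member in place of 2 had a peak within 3 kb of its start site (Klf15, since the Klf9 promoter peak has a score of 46). With a window of 1 kb around the start site, too, 1 member had one, here Klf9, because the Klf15 peak lies at 1016 bp. Fewer peaks or a narrower window make both counts smaller by construction. The number of members with a nearest peak was 7 with a score of at least 30 and 6 at the median or without repeat peaks. Members with a peak near the body numbered 5 with 20 kb, 7 with 50 kb and 8 with 250 kb. The shares of all protein-coding genes under these changed settings were not computed, so these counts have no like share beside them. No paired analysis was possible because there is 1 ChIP library. Read depth is unknown, so a member without a peak, such as Klf7, may have sites too weak to be listed.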

Other observations

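The Klf15 promoter window held 3 E-box matches (CACGTG), 228 and 172 bp upstream of the start site and across the start itself. As many or more were found in 29 of the 32851 promoter windows (0.0883%). The window was examined after its sequence had been seen, and the count was not tied to a peak.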
